A study of Saccharomyces cerevisiae with 4 samples.

Results

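The probe sets described here are those for which the platform annotation listed no gene, on 4 one-colour Affymetrix arrays of Saccharomyces cerevisiae. A probe set is the group of short oligonucleotides that gives 1 signal. Members were the non-control probe sets whose gene symbol was empty, 2443 of 9275 (26.3%), and another 6504 had exactly 1 gene and 328 several. An empty symbol means that a probe set is unnamed here, not that it measures no gene, so members are called by their probe set identifiers. There were 2 arrays labelled hst3hst4 (strain YCB600) and 2 labelled wild-type (WT, strain YCB617). Both strains are of the FY background and were grown in YPD, a rich medium. Each array carried RNA from a culture of its own, and the design pairs every mutant culture with every wild-type one. Because RNA came from whole cultures, fewer cells with a transcript and less of it per cell cannot be told apart.

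The sirtuins Hst3 and Hst4 are NAD-dependent enzymes that remove acetyl groups from lysine 56 of histone H3, a mark of newly assembled chromatin. Beside annotated genes, yeast arrays of this kind carried probe sets for short or doubtful open reading frames, repeated elements and other sequences that gene catalogues do not always list. The ending of an Affymetrix identifier tells how specific the probes were meant to be. A plain _at set was designed to match 1 sequence, an _s_at set matches several transcripts with the same probes, and an _f_at set matches a family of similar sequences. An _i_at set holds fewer unique probes than usual, an _r_at set was chosen with relaxed design rules, and a _g_at set belongs to a group of related sequences. Ty elements, the retrotransposons of yeast, are present in many near-identical copies, so family probe sets are the usual way to read them.

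The deleted genes, which check the labels, did not read alike. HST3 had signals of 0.4 and 0.5 on the hst3hst4 arrays, against 13.7 and 25.3 on the WT arrays. HST4 went the other way, with 38.0 and 39.3 on the arrays labelled hst3hst4, against 3.6 and 0.9 on those labelled WT (log2 fold change 2.96, limma adjusted p = 0.0104). The place of its probes relative to the deletion was not known here, so if they lie outside it this value checks nothing. Groups are therefore named by their labels, and higher or lower below means on arrays labelled hst3hst4 relative to arrays labelled WT. The 3' to 5' signal ratio of the TATA-binding protein control was 3.82 and 3.70 on the hst3hst4 arrays, against 4.64 and 5.20 on the WT arrays. That of SRB4 went the other way, with 2.34 and 1.90 on the hst3hst4 arrays, against 1.87 and 1.63 on the WT arrays. That of actin overlapped, with 1.73 and 1.78 on the hst3hst4 arrays, against 1.70 and 1.88 on the WT arrays. The 9 hybridisation controls were lower on the hst3hst4 arrays, by -0.36 log2 on average (hst3hst4 minus WT). Scaling on these controls, an alternative added after the data were seen, brought the median change over the whole tested table to 0.34 on the log2 scale. The part of RNA quality or of the scaling in the results below was not tested, and all changes are relative to the deposited scaling.

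Most members were dim. Their median signal was 10.1 and 11.0 on the hst3hst4 arrays, against 10.2 and 11.8 on the WT arrays. The probe sets with 1 gene had median signals of 53.2 and 58.3 on the hst3hst4 arrays, against 54.8 and 53.8 on the WT arrays. Each of the 4 arrays thus showed the same order, with no overlap between the medians of the 2 kinds. On the log2(signal + 3.3) scale the median of the members minus that of the 1-gene probe sets was -2.05 ± 0.09 (SD, n = 4 arrays), a ratio of 0.241. An exact two-sided sign-flip permutation test over the arrays gave p = 0.125, the smallest value that 4 arrays allow. The 2 strains did not stand apart in this gap, which was -2.08 and -2.11 on the hst3hst4 arrays, against -2.10 and -1.92 on the WT arrays.

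**Figure D1:**
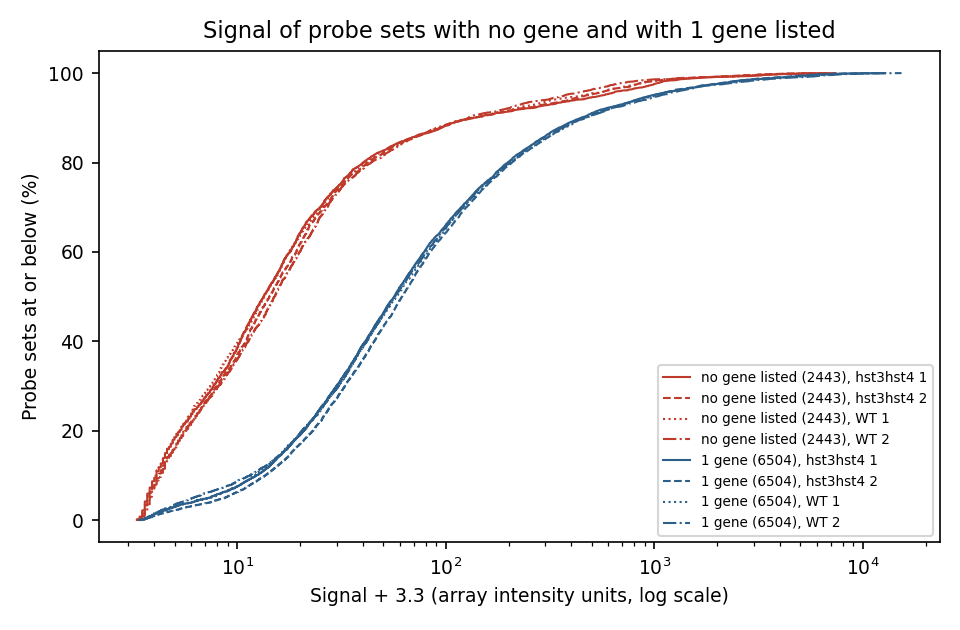
Share of probe sets (%, vertical axis) at or below a given signal + 3.3 (intensity units, log scale) on each of the 4 arrays, for the 2443 probe sets with no gene listed (red) and the 6504 with 1 gene (blue). The 4 red lines lie together and left of the 4 blue lines, with medians of 10.1 to 11.8 against 53.2 to 58.3 before 3.3 was added.

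The dim end held a large part of the members. Signals stayed under 3.3, the 10th percentile of all signals, on every array for 252 members (10.3%) and for 95 of the 1-gene probe sets (1.46%). The filter on low values left out the dimmest 20% of all probe sets, and it removed 1176 members (48.1%) against 647 of the 1-gene probe sets (9.95%). Of the members, 1267 (51.9%) were tested. The members left out reached at most a signal of 37.9 on any array. With no filter none of them was called by limma (lowest adjusted p = 0.0573).

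Some members were bright all the same. On the hst3hst4 arrays, 392 and 374 members lay above the median of the 1-gene probe sets, and on the WT arrays 397 and 411 did. A signal over 1000 on every array was seen for 30 members, of which 14 were _f_at, 9 _s_at, 5 _at, 1 _i_at and 1 _g_at. None of these 30 was called. Of all tested probe sets 2.64% were, a share at which few of 30 would be. The 6 brightest members differed little between the strains. The brightest, 9183_s_at, had signals of 6508.7 and 5204.2 on the hst3hst4 arrays, against 6842.3 and 7693.9 on the WT arrays (log2 fold change -0.32, adjusted p = 0.258). Its groups did not overlap, yet its difference did not pass the test. Also among the 6, 3915_s_at, 3913_s_at and 3914_s_at carry successive numbers and may share a target. They had log2 fold changes of 0.14, 0.29 and 0.22 (lowest adjusted p = 0.262). 10916_at had 4041.7 and 4257.2 on the hst3hst4 arrays, against 5066.5 and 5336.6 on the WT arrays (log2 fold change -0.33, adjusted p = 0.173). 3798_s_at followed at 0.11 (adjusted p = 0.687), with overlapping groups. The negative values of 9183_s_at and 10916_at turned to 0.04 and 0.03 on the scaling to hybridisation controls, and that of 3798_s_at was -0.01 without hst3hst4 replicate 1.

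The gap in signal depended on the probe set ending. Among plain _at sets, 1861 members and 5657 with 1 gene, the members were lower by a mean log2 difference of -2.21 ± 0.11 (SD, n = 4 arrays), about 4.63-fold. Among _i_at sets, 142 members and 83 with 1 gene, the difference was -4.08 ± 0.19 (SD, n = 4 arrays). The _i_at members had median signals of 3.15 and 3.0 on the hst3hst4 arrays, against 2.80 and 3.65 on the WT arrays, close to the floor, while those with 1 gene ran from 95.1 to 121. This was the widest gap of any ending. The _r_at sets (43 members, 15 with 1 gene) differed by -0.75 ± 0.11 and the _g_at sets (38 members, 120 with 1 gene) by -0.42 ± 0.36 (SD, n = 4 arrays each), lower on 4 of 4 arrays.

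At the median, members of the 2 kinds that share probes across sequences were not dimmer. The 290 _f_at members were higher than the 194 _f_at sets with 1 gene on 4 of 4 arrays, by 0.47 ± 0.20 log2 (SD, n = 4). Their median signals were 135 and 115 on the hst3hst4 arrays, against 118 and 111 on the WT arrays, and those of the 1-gene _f_at sets were 83.2 and 79.6 on the hst3hst4 arrays, against 102 and 77.4 on the WT arrays. Toward both ends, however, the _f_at members were dimmer. Their 90th percentiles ran from 729 to 1100 over the arrays, against 1680 to 1870 for the 1-gene _f_at sets. A mean signal over 1000 was seen for 7.93% against 20.1%, and the filter left out 27.2% against 7.73%. The 69 _s_at members were higher than the 433 _s_at sets with 1 gene on 4 of 4 arrays, by 0.25 ± 0.18 log2 (SD, n = 4). Each of these 6 differences had an exact sign-flip permutation p of 0.125, the smallest that 4 arrays allow.

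**Figure D2:**
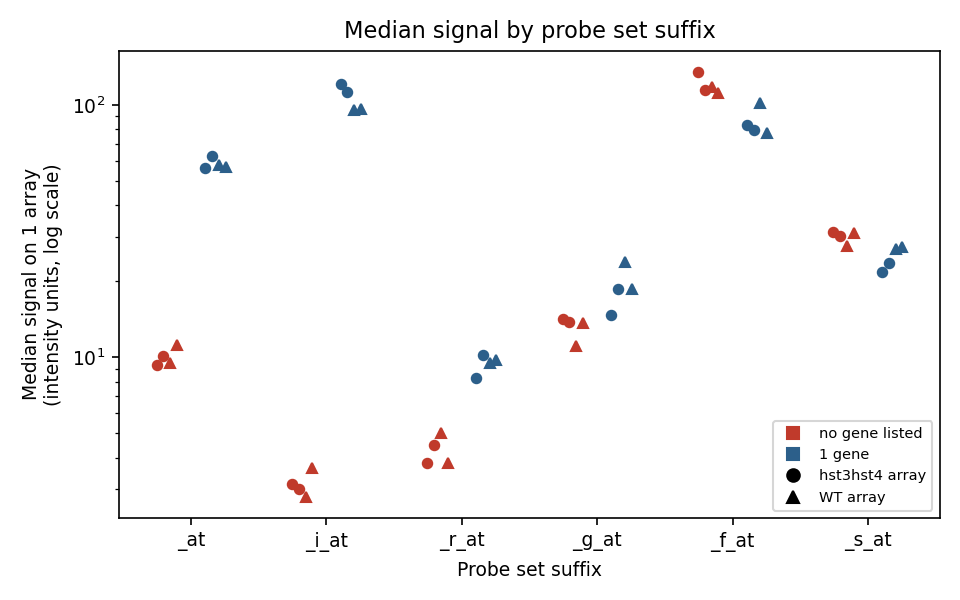
Median signal on each array (intensity units, log scale) by probe set suffix, for members (red, left of each pair) and probe sets with 1 gene (blue, right), with hst3hst4 arrays as circles and WT arrays as triangles. Members lie lower among _at, _i_at and _r_at sets and higher among _f_at sets, where their medians run from 111 to 135.

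In the comparison of the strains, limma called 16 of the 1267 tested members at an adjusted p of 0.05. On the hst3hst4 arrays 12 of them were higher and 4 lower. Of all tested probe sets, 2.64% passed (2.10% higher and 0.539% lower). Among the members the share was 1.26%, and among the 1-gene probe sets 2.66%. At an unadjusted p under 0.05 the members (243, 19.2%) stood near the 20.2% of the whole table. The median log2 fold change was 0.02 in the members (quartiles -0.29 and 0.33) and -0.02 over the whole tested table. On the scaling to hybridisation controls 236 members were higher and 5 lower, 19.0% of them called against 16.0% of the whole tested table. Without hst3hst4 replicate 1 the count was 2, without hst3hst4 replicate 2 it was 1, and without WT replicates 1 and 2 it was 160 and 30. Over the whole tested table the shares called were then 0.121%, 0.0539%, 11.7% and 4.54%, so the count of members moved with that of the table. Of the 16, only 2435_at (adjusted p = 0.0147) and 8067_i_at (0.0403) were called without hst3hst4 replicate 1, and only 2435_at (0.0041) without hst3hst4 replicate 2. Without WT replicate 1 only 2656_at lost its call (0.0706). With no filter on dim probe sets 8067_i_at, 2435_at, 5476_at and 8187_at were called (highest adjusted p = 0.0478). The filter used the mean over all 4 arrays, with a cut at a signal of about 8.97. Both WT signals of 8187_at and 5314_at, and both hst3hst4 signals of 2656_at, were under it. These members were thus tested on account of the group where they were higher. With no filter 5314_at had an adjusted p of 0.08 and 2656_at of 0.107.

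**Figure D3:**
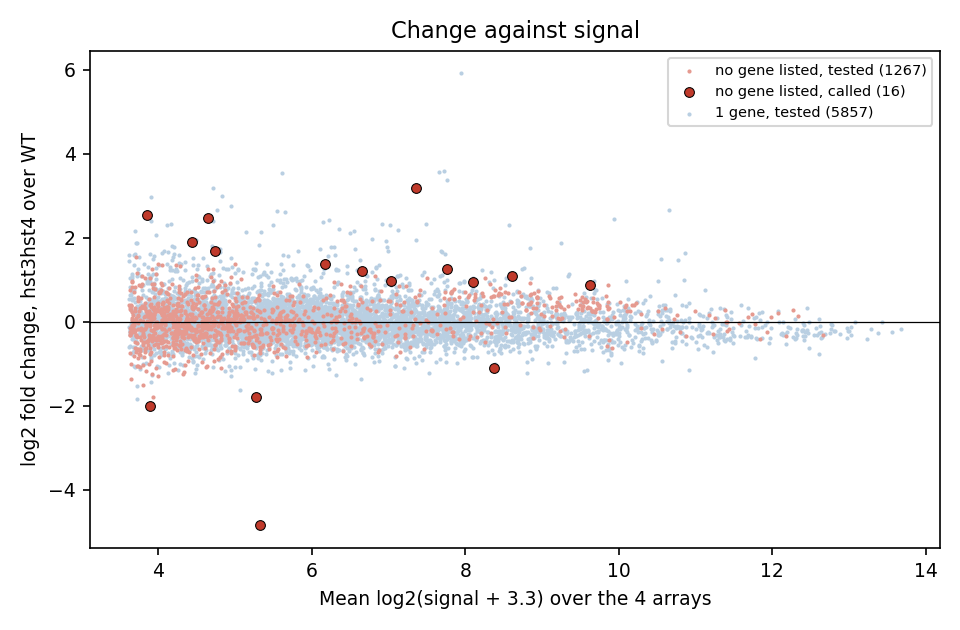
Log2 fold change (hst3hst4 over WT, vertical axis) against mean log2(signal + 3.3) over the 4 arrays for the 1267 tested members (pale red), the 16 called members (outlined) and the 5857 tested probe sets with 1 gene (pale blue). The lowest point, at -4.84, is the member 2435_at.

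The groups did not overlap in any of the 16 called members, which was also true of 52.5% of all tested probe sets. The highest was 8067_i_at, with signals of 456.2 and 526.6 on the hst3hst4 arrays, against 62.5 and 41.1 on the WT arrays. It rose 9.13-fold on the log2(signal + 3.3) scale (log2 fold change 3.19, SE 0.22, adjusted p = 0.000946) and stood at rank 7 from the top among all tested probe sets. Its neighbours in number, 8066_at and 8068_at, also list no gene, and 8066_at was at 0.53 log2 (adjusted p = 0.190) while 8068_at was below the filter. The next 4 were dim on the WT arrays. 8187_at had 32.3 and 30.5 on the hst3hst4 arrays, against 3.4 and 2.0 on the WT arrays (log2 fold change 2.54, adjusted p = 0.0146). 9296_at had 55.2 and 56.0 on the hst3hst4 arrays, against 4.9 and 10.4 on the WT arrays (2.47, adjusted p = 0.0104). For both, the WT signals are of the size of the added 3.3 or a few times that, so the fold understates the ratio of the raw signals.

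Members with smaller changes followed, of which 5314_at and 5809_i_at were dim on the WT arrays. 5314_at had 32.4 and 46.5 on the hst3hst4 arrays, against 7.5 and 8.3 on the WT arrays (log2 fold change 1.91, adjusted p = 0.0209). 5809_i_at had 38.8 and 51.6 on the hst3hst4 arrays, against 9.5 and 13.9 on the WT arrays (1.70, adjusted p = 0.0256). The member with the next number, 5810_s_at, showed the same direction at 141.3 and 162.9 on the hst3hst4 arrays, against 76.4 and 103.9 on the WT arrays, but did not pass (0.75, adjusted p = 0.108). 9837_s_at had 115.3 and 111.8 on the hst3hst4 arrays, against 45.4 and 37.5 on the WT arrays (1.39, adjusted p = 0.0146).

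The other members that rose were brighter and changed by less. 5626_at had 353.8 and 309.4 on the hst3hst4 arrays, against 127.7 and 147.6 on the WT arrays (log2 fold change 1.25, adjusted p = 0.0146). 5642_at had 164.9 and 135.4 on the hst3hst4 arrays, against 56.1 and 70.5 on the WT arrays (1.21, adjusted p = 0.0256). 3953_at had 624.2 and 516.6 on the hst3hst4 arrays, against 283.6 and 248.0 on the WT arrays (1.09, adjusted p = 0.0208). In each of these the lower hst3hst4 array was above the higher WT array by a wide margin. 10902_at had 179.5 and 180.2 on the hst3hst4 arrays, against 98.3 and 82.0 on the WT arrays (0.98, adjusted p = 0.0343). 3727_f_at, the only called member of the _f_at kind, had 414.8 and 344.0 on the hst3hst4 arrays, against 213.0 and 177.2 on the WT arrays (0.95, adjusted p = 0.0383). 10836_at, outside the naming rule and named after its values were seen, had 1059.5 and 1081.0 on the hst3hst4 arrays, against 641.7 and 518.7 on the WT arrays (0.89, adjusted p = 0.0297). It was the brightest member called.

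Of the 4 members that fell, 2435_at ranked lowest in log2 fold change among the 7420 probe sets tested. Its signals were 1.2 and 9.2 on the hst3hst4 arrays, against 245.0 and 182.4 on the WT arrays. It fell by 4.84 on the log2 scale (SE 0.44, adjusted p = 0.00243), while the lowest tested probe set with 1 gene was at -1.84. The size rests on the pseudocount, since the hst3hst4 signals were close to 0. It was -5.49 with a pseudocount of 1 and -3.67 with one of 12.9, and ran from -5.58 without hst3hst4 replicate 2 to -4.10 without hst3hst4 replicate 1. It was also the only member still called whichever array was left out. 2656_at had 3.7 and 4.6 on the hst3hst4 arrays, against 36.5 and 18.7 on the WT arrays (log2 fold change -1.99, adjusted p = 0.0465). 2822_at had 24.6 and 12.2 on the hst3hst4 arrays, against 58.6 and 79.3 on the WT arrays (-1.78, adjusted p = 0.0326). 5476_at, the brightest of the 4, had 238.0 and 211.3 on the hst3hst4 arrays, against 484.0 and 484.3 on the WT arrays (-1.10, adjusted p = 0.0158). The other members that fell were dim on the hst3hst4 arrays, at 1.2 to 24.6, where the subtraction of mismatch signals makes values noisy.

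**Figure D4:**
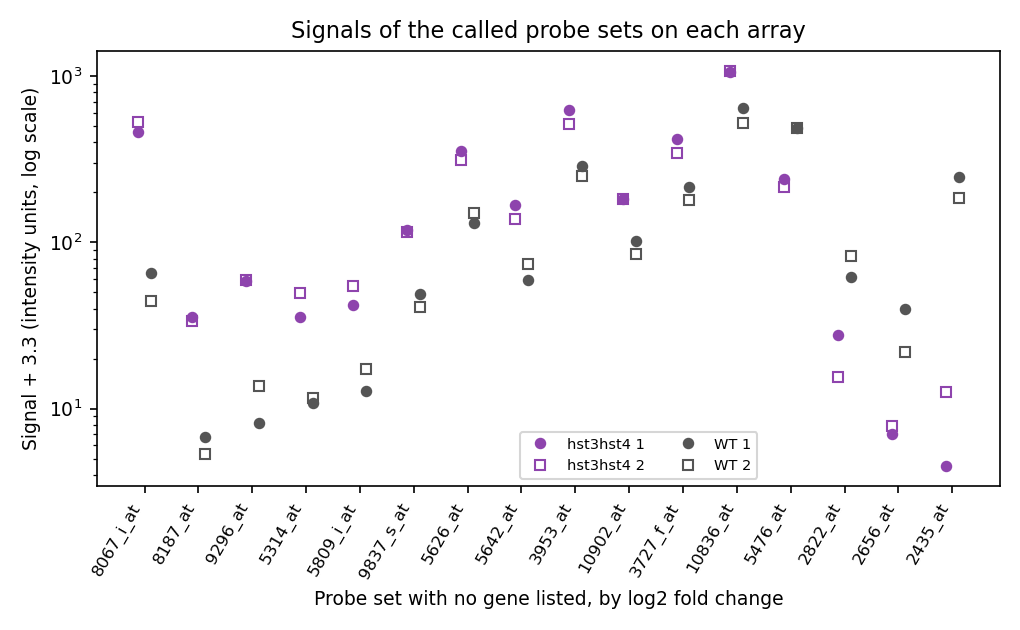
Signal + 3.3 (intensity units, log scale) of the 16 called members on each array, hst3hst4 arrays in purple left of WT arrays in grey, ordered by log2 fold change. The first 12 lie higher and the last 4 lower on the hst3hst4 arrays, with no overlap, and 2435_at has the widest gap.

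Members just outside the threshold followed. 3697_f_at had 480.3 and 393.4 on the hst3hst4 arrays, against 261.2 and 202.2 on the WT arrays (log2 fold change 0.91, adjusted p = 0.0518). 6945_g_at had 281.8 and 237.7 on the hst3hst4 arrays, against 149.2 and 101.2 on the WT arrays (1.05, adjusted p = 0.0518). Both lay just outside the threshold, where 3727_f_at and 2656_at lay just inside it.

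Counted as the study's design sets the arrays side by side, 15 members differed at least 2-fold with the same sign in each of the 4 array pairs, 9 higher and 6 lower. That is 1.18% of those tested, against 1.64% of the whole table (1.50% higher and 0.148% lower). Of the 11 probe sets that were lower by this measure, 6 were members and 5 had 1 gene, where members made up 17.1% of the tested table. Among the 6, 2435_at, 2656_at, 2800_at and 2731_at had hst3hst4 signals of 1.2 to 9.2, close to the floor. Among these 15 members, 11 also passed the limma test. The other 4 had their groups well apart but did not pass it. 9813_at had 30.9 and 44.7 on the hst3hst4 arrays, against 13.4 and 13.8 on the WT arrays (log2 fold change 1.26, adjusted p = 0.0593). 8876_i_at had 22.1 and 24.2 on the hst3hst4 arrays, against 5.7 and 8.7 on the WT arrays (1.35, adjusted p = 0.0822). 2800_at and 2731_at were lower, with log2 fold changes of -1.78 and -1.29 (adjusted p = 0.0895 for both).

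The precision of a member followed its signal. The typical (median) standard error on the log2 scale was 0.272 over the tested members and 0.213 over the 1-gene probe sets. Of the tested members, 533 (42.1%) lay in the dimmest 20% of the tested table, where the standard error was 0.352 for members and 0.335 for 1-gene probe sets. In the brightest 20%, with 185 members, the members differed more between arrays of 1 strain than the 1-gene probe sets did. There the median absolute log2 difference was 0.23 between the hst3hst4 arrays and 0.31 between the WT arrays for members, and 0.13 and 0.17 for 1-gene probe sets. In the same bin the median log2 fold change was 0.32 for members, of which 76.2% were above 0, and -0.10 for 1-gene probe sets, of which 38.9% were above 0. The bright members were mostly _f_at sets, 127 of 185. Those 127 had a median of 0.39, and the 58 bright members of other endings had -0.12. Within strains the 127 mostly shifted in 1 direction, with replicate 1 minus replicate 2 at medians of 0.24 (hst3hst4) and 0.35 (WT). In the 58 these medians were 0.10 and -0.03, with a median absolute difference of 0.21 in each strain.

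Most _f_at members had a higher mean log2 signal on the hst3hst4 arrays, though 1 of 211 tested passed (0.474%, against 2.10% called higher in the whole table). Of all 290, 230 (79.3%) were above 0 in log2 fold change, and of the 211 tested, 181 (85.8%) did, against 48.1% of all tested probe sets. Their median was 0.39 among those tested and 0.34 among all 290. The lean was that of the 249 numbered from 3000 up to 4000, with a median of 0.39 among 189 tested, of which 91.5% were above 0. The 41 with other numbers had a median of -0.15 among 22 tested, of which 8 (36.4%) were above 0. At an unadjusted p under 0.05 there were 91 of the 211 (43.1%), against 20.2% of the whole tested table. The share was 42.0% in tested _f_at sets with several genes and 27.4% in those with 1 gene. Family probe sets read overlapping sets of sequences, so these members are not independent of each other. The quartiles of those tested were 0.17 and 0.58. The highest, 3793_f_at, was at 1.07 (adjusted p = 0.122), and the lowest, 3092_f_at, at -1.02 (adjusted p = 0.163).

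On single arrays the _f_at members stood at median deviations from their own means of 0.26 and 0.11 log2 on the hst3hst4 arrays, against -0.04 and -0.28 on the WT arrays. The groups did not overlap. The difference of 0.34 had an exact two-sided permutation p of 0.333, the smallest that 2 against 2 arrays allow. Within strains, hst3hst4 replicate 1 exceeded replicate 2 by a median of 0.18 and WT replicate 1 exceeded replicate 2 by 0.23, so cultures of 1 strain differed by more than the smallest gap between strains, 0.13. Replicate 1 was the higher in both strains for 158 of the 290 (54.5%), against 38.1% of the _f_at sets with 1 gene and 17.3% of all probe sets. Pair by pair, the 4 medians lay between 0.13 and 0.54. Without WT replicate 2 the median of the tested _f_at members was 0.22, and without WT replicate 1 it was 0.53.

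The platform lists retrotransposon (Ty) genes, and no other gene, for 100 further _f_at sets. These were put together after the values of the _f_at members had been seen. Their median log2 fold change was 0.32, with 88 of 100 above 0 and 1 called, and their median deviations were 0.24 and 0.07 on the hst3hst4 arrays, against -0.06 and -0.25 on the WT arrays. The 162 _f_at sets that list 1 gene of another kind had a median of -0.21, with 53 above 0. The 34 _f_at sets that list several genes, none of them of a retrotransposon, had a median of 0.32, with 22 above 0, and deviations of 0.21 and 0.13 on the hst3hst4 arrays, against -0.13 and 0.0 on the WT arrays. The median was thus positive in the Ty sets and in these 34, and negative in the 162. Replicate 1 was the higher in both strains for 71.0% of the Ty sets, 34.0% of the 162 and 20.6% of the 34. What sequences lie behind these patterns was not tested. Since all these classes were measured on the same 4 arrays, their likeness across arrays is a description only, and no member is given a gene by it. The plain _at members had a median of -0.09 among 935 tested, of which 42.8% were above 0.

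**Figure D5:**
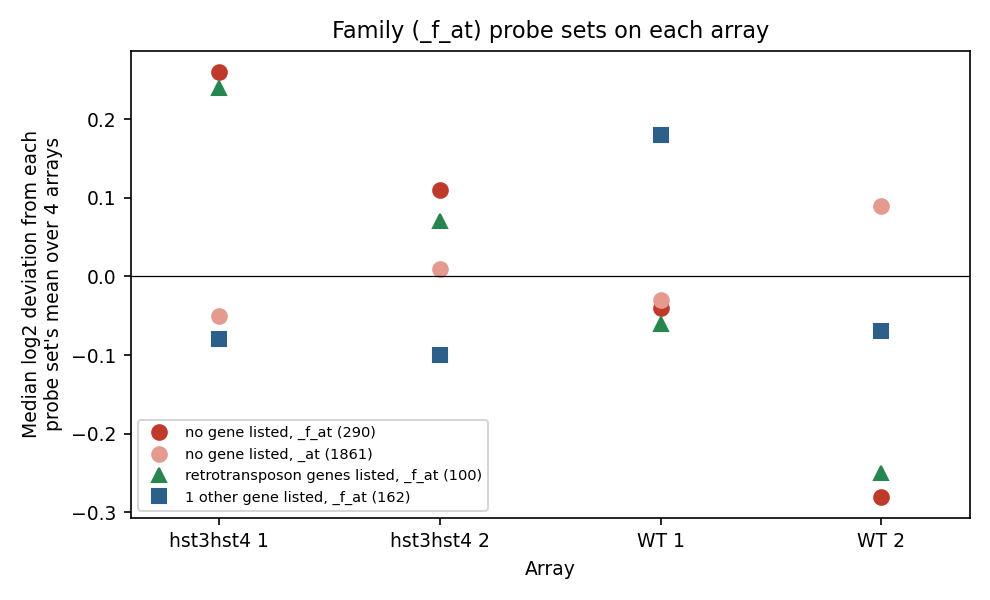
Median log2 deviation from each probe set's own mean on the 4 arrays, for _f_at members (red), _at members (pale red), _f_at sets that list retrotransposon genes only (green triangles) and _f_at sets that list 1 other gene (blue squares). The _f_at members and the retrotransposon sets lie highest on hst3hst4 replicate 1 and lowest on WT replicate 2, from 0.26 to -0.28 for the members.

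Other endings held fewer tested members. Of 36 tested _i_at members 2 were called, both higher (5.56%, against 1.89% of the _i_at sets with 1 gene), with 4660_i_at lowest at -0.78 (adjusted p = 0.282). Of 52 tested _s_at members 1 was called (1.92%, against 3.25% of those with 1 gene), with 2711_s_at lowest at -0.70 (adjusted p = 0.178). None of 10 tested _r_at or 23 tested _g_at members was called by limma, and at an unadjusted p under 0.05 there were 0 and 2, where 20.2% of the whole tested table had such a p. The _r_at members ran from 8093_r_at at 0.50 (adjusted p = 0.338) to 5463_r_at at -0.62 (adjusted p = 0.361). The _g_at members ran from 6945_g_at to 3151_g_at at -0.61 (adjusted p = 0.229). The remaining 12 calls fell among 935 tested _at members (1.28%), against 138 of 5201 _at sets with 1 gene (2.65%).

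Members were not spread evenly over the numbers of the design. Numbers ran from 2100 to 11436, each used once. From 3000 up to 4000, 542 of 948 probe sets (57.2%) listed no gene, and below 3000, 394 of 890 (44.3%) did, against 16.2% to 27.4% in the other ranges of 1000. The range from 3000 to 4000 held 249 of the 290 _f_at members. There the tested members had a median log2 fold change of 0.30 and the 1-gene probe sets -0.17. In that range the 101 tested members of other endings had a median of -0.05, and the _f_at members outside that range had -0.15, so the positive median went with both the ending and the range. In the range below 3000 the median was -0.29 in 152 tested members and -0.30 in 319 tested 1-gene probe sets. That range held 3 of the 4 members that fell and none of the 12 that rose. Called were 1.97% of its tested members, against 2.64% of the whole tested table. Among its 1-gene probe sets 4 fell and 2 rose (1.88% of those tested).

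Successive numbers often mark probe sets made for related sequences. Where an _at set was followed by a _g_at set and both listed 1 gene, the gene was the same in 106 of 110 such pairs (96.4%), against 65 of 4788 pairs of successive _at sets (1.36%). The same held for 27 of 27 pairs of an _i_at and an _f_at set, 11 of 11 of an _i_at and an _r_at set and 9 of 9 of an _i_at and an _s_at set. Among members, 36, 59, 40 and 11 pairs of these 4 kinds had no gene on either side. Such members may share a target and are not independent. With both sides tested, the same sign was seen in 7 of 8 _at and _g_at pairs, 4 of 6 _i_at and _f_at pairs, 5 of 6 _i_at and _r_at pairs and 2 of 3 _i_at and _s_at pairs, against 173 of 294 pairs of successive _at members. Values within such a pair could lie close together, as in 8092_i_at and 8093_r_at at 0.52 and 0.50, or apart, as in 3674_i_at and 3675_r_at at 0.64 and -0.42.

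The member 2435_at directly precedes 2436_g_at, which lists LEU2, the isopropylmalate dehydrogenase of leucine synthesis. This pair was looked up after the values were seen. 2436_g_at had 472.1 and 552.9 on the hst3hst4 arrays, against 1231.5 and 1058.9 on the WT arrays (log2 fold change -1.16, adjusted p = 0.0141). A further LEU2 set, 6909_at, had 1260.1 and 1327.0 on the hst3hst4 arrays, against 2873.2 and 2875.4 on the WT arrays (-1.15, adjusted p = 0.00502). Another LEU2 set, 2437_s_at, was below the filter, with 3.1 and 2.3 on the hst3hst4 arrays, against 9.6 and 24.9 on the WT arrays. Each of the 4 was lower on the hst3hst4 arrays, and 2435_at by the most on the log2 scale. The annotation lists no gene for 2435_at, and none is given to it here.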

How the data were processed

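RNA from 2 hst3hst4 and 2 WT cultures was amplified from an oligo-dT primer and hybridised to 1 array each, per the labels. The authors deposited 1 linear intensity per probe set and array, made with GCOS 1.4 and MAS5, per the submitters' processing notes. Neither the scale target nor detection calls were given. MAS5 subtracts mismatch signals, so low values are noisy. No value column was left unused.

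Members were taken from the platform annotation, which for them gave no symbol and no other identifier. Signals were analysed as log2(signal + 3.3). The dimmest 20% by mean log2 value (below a signal of about 8.97) were left out, and 7420 probe sets were tested with limma 3.58.1 (lmFit, eBayes with trend, R 4.3.3), as a two-sided test adjusted after Benjamini and Hochberg over all of them, with a threshold of 0.05. All adjusted p-values are from limma. The fit was tested on simulated data with known changes. Class medians were compared over arrays with exact permutation tests in scipy 1.17.1. The number of arrays limits all precision.

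Named were called members (the 10 highest and 10 lowest), the 6 brightest, the extremes of each suffix and those beside the threshold. The members and lists were chosen with earlier results of these data known. Alternatives were quantile normalization, centring, other pseudocounts (1 and 12.9), filters, no trend, a replicate block, arrays left out and, added after seeing the data, scaling on 9 hybridisation controls. Over all tested probe sets, arrays with the same replicate number did not deviate together (correlation -0.041). Family probe sets departed from this. Replicate 1 was higher in both strains for 54.5% of the _f_at members, against 17.3% of all probe sets. It was so for 71.0% of the _f_at sets that list only retrotransposon genes, and for 38.1% of the _f_at sets with 1 gene. Figures were drawn with matplotlib 3.10.9.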

Additional observations from a re-analysis of the deposited data

How the results depend on the processing

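The count of 16 called members was 4 with no filter and 5 without the variance trend, both with all of their calls among the 16 (4 and 5 shared). It was 41 with the replicate number as a block, although over all tested probe sets the numbers did not pair the arrays. The added scaling to hybridisation controls shifts all probe sets of an array alike. On it limma gave each probe set the variance of the trend alone, and the count was 241. With 1 array left out it ran from 1 to 160. It ran from 14 to 21 under quantile normalization, centring, both other pseudocounts, the filter of 40% and the fit without probe sets of several genes. All of the 16 were among these calls, except after centring (15 shared) and with the filter of 40% (11 shared among its 14 calls). The rest of the 16 lay below the filter of 40% and were not tested there, among them 8187_at, 9296_at and 2656_at. Members with neither symbol nor gene identifier were the same 2443 probe sets, so that alternative gave nothing further. The median log2 fold change of the members, 0.02, was -0.03 after centring on array medians, 0.08 with the filter of 40% and 0.37 on the hybridisation control scaling, and ran from -0.05 to 0.05 with 1 array left out. The median of the _f_at members was 0.75 on that scaling and ran from 0.22 to 0.53 with 1 array left out, above 0 under every setting run. The signal gap of -2.05 was -2.25 with a pseudocount of 1, -1.52 with 12.9 and -2.21 with 1 probe set per gene. The gap ran from -2.10 to -2.03 with 1 array left out. With pseudocounts of 1 and 12.9 the log2 fold changes were 3.16 and 1.51 for 8187_at, 2.79 and 1.75 for 9296_at and -2.41 and -1.21 for 2656_at, all still called. Named probe sets that changed sign were 9183_s_at (0.04) and 10916_at (0.03) on the hybridisation control scaling and 3798_s_at (-0.01) without hst3hst4 replicate 1. The causes of these shifts were not tested. The planned comparison of probe sets with the same number was not run, since no number was shared.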

Other observations

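The annotation listed 5656 of 6477 RefSeq genes of the R64 assembly with a probe set of their own and 267 only on sets shared with other genes. For 554 genes (8.55%) it listed none. Among these were 270 of 6021 protein-coding genes (4.48%), 208 of 299 tRNA genes (69.6%), 19 of 76 snoRNA genes, 22 of 22 genes of other non-coding RNAs and 7 of 7 antisense RNA genes. How many of these genes the 2443 unnamed probe sets measure was not tested, because no probe sequences were used here.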
